A study of Mus musculus with 36 samples.

Results

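The clustered protocadherins are cell-surface adhesion proteins encoded by 3 neighbouring gene clusters, alpha, beta and gamma. Their genes were picked out by symbol: Pcdha followed by a digit or by c and a digit, Pcdhb followed by a digit, and Pcdhga, Pcdhgb or Pcdhgc followed by a digit. This rule found 58 genes among the 24581 genes listed in all 3 tissues. The alpha cluster held 14 of them, the beta cluster 22 and the gamma cluster 22. All lay on chromosome 18 of the mm9 build, where the alpha genes spanned positions 37089939 to 37347314, the beta genes 37424652 to 37681073, and the gamma genes 37821599 to 38001526.

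RNA-seq was carried out on the main olfactory epithelium (MOE), the vomeronasal organ (VNO) and the olfactory bulb (OB) of C57BL/6 mice at 6 months of age. From weaning at 3 weeks, females (SF) and males (SM) were kept sex-separated, or females (CF) and males (CM) were kept together in sex-combined cages, with 4 mice per cage in each case. Per the study, all 3 tissues were taken from each mouse. Each combination of tissue, sex and housing had 3 libraries, 36 in all, and each library was made from the pooled RNA of several mice. The series' design text and the study's methods give different numbers of mice per pool.

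Levels are in FPKM (fragments of a transcript scaled to its length and to the mapped fragments of the library), so they can be compared between genes as levels per length. The fragments behind the values of all genes, estimated from the confidence limits in the tables, came to about 3020000 to 5900000 per library in MOE, 3370000 to 6780000 in VNO and 3590000 to 6440000 in OB. These estimates take the limits to hold counting error only, which was not checked for genes that share exons. Most tissue markers matched the labels. Omp, a marker of mature olfactory sensory neurons, had a mean level of 983 ± 149 FPKM in MOE (SD, n = 12), 101 ± 12.5 FPKM in VNO and 35.1 ± 4.38 FPKM in OB. The summed level of 10 bulb neuron markers was 758 to 973 FPKM in OB, against 28.6 to 51.7 FPKM in MOE and 219 to 309 FPKM in VNO, where Calb2 (177 FPKM) and Pcp4 (84.0 FPKM) made up most of it. The summed level of 5 vomeronasal sensory neuron markers was 84.9 to 111 FPKM in VNO, 3.49 to 6.60 FPKM in MOE and 11.2 to 14.3 FPKM in OB. Trpc2, the channel of these neurons, had a median of 0 in OB. Most of the OB sum was Gnao1, at 11.3 FPKM in OB against 4.85 FPKM in VNO. Of the 5 markers 1 was higher and 4 were lower in OB than in VNO, and 2 were higher and 1 lower than in MOE. Among all genes tested as described below, 48% were higher and 37.8% lower than in VNO, and 39.3% and 45.7% than in MOE. The library MOE-CM3 (replicate 3 of the sex-combined males) stood apart, with the fewest estimated fragments of MOE. The study lists it with the most read pairs of MOE but the lowest share of reads aligned. It had the lowest MOE value of 18 of the 21 beta genes other than Pcdhb1. This was not limited to them, as Actb (184 FPKM), Omp (638 FPKM) and Cnga2 (131 FPKM) were also lowest there. The share over all genes was not counted. VNO-CF1 and OB-SF3 stood apart in their alpha or gamma values, as described below.

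Each alpha and gamma gene has its own large first exon, which encodes the extracellular, transmembrane and membrane-near parts of the protein, and is spliced to short 3′ exons that all genes of its cluster share. Beta genes are single-exon genes without a shared 3′ end. In most neurons each cell activates a few of these promoters by an apparently random choice that involves DNA methylation, CTCF and cohesin, and the proteins bind to identical partners on other membranes. This gives a neuron a surface identity, and in the olfactory system the clusters are known for their part in the sorting of sensory axons into glomeruli. The 5 C-type genes (Pcdhac1, Pcdhac2, Pcdhgc3, Pcdhgc4 and Pcdhgc5) lie at the 3′ ends of the alpha and gamma clusters and are not chosen in this random way.

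The deposited values split the clusters sharply. The beta genes carried values in nearly every library, whereas 13 of 14 alpha genes and 21 of 22 gamma genes were listed at exactly 0 FPKM in all 36 libraries. Over all genes listed in the 3 tissues, 10.1% were at 0 in all 36 libraries. In MOE all 14 alpha and all 22 gamma genes were at 0 in every library. The genes at 0 included 3 of the C-type genes: Pcdhac1, Pcdhgc4, which is known to be needed for the survival of certain neurons, and Pcdhgc5. Taf7, which lies between the beta and gamma clusters and encodes a subunit of the general transcription factor TFIID, had a value in all 36 libraries, with medians of 5.99 FPKM in MOE, 2.79 FPKM in VNO and 3.77 FPKM in OB. Slc25a2, a neighbour looked up beside it, was low, with medians of 0.141 FPKM in MOE, 0.185 FPKM in VNO and 0.286 FPKM in OB. It was at 0 in 1 MOE library. Both were named after their values had been seen.

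The remaining C-type genes, Pcdhgc3 and Pcdhac2, had values in some libraries. Pcdhgc3 (positions 37966064 to 38001526), the only gamma gene above 0 anywhere, was at 0 FPKM in all 12 MOE libraries. In VNO it had a value in all 12 libraries. These were 32.4, 36.0 and 41.0 FPKM in SF, 35.0, 39.8 and 40.9 FPKM in SM, 21.04, 43.0 and 46.9 FPKM in CF, and 37.9, 40.3 and 36.0 FPKM in CM. In OB it was at 0 in 11 libraries and at 61.0 FPKM in OB-SF3, above every VNO value. The fragment estimate was 965 to 1479 for the VNO values and 1605 for the single OB value. As the gene shares exons, these estimates are not read as fragment counts. The SF group of OB thus held values of 0, 0 and 61.0 FPKM. An antisense gene, BC037039, covers 31.6% of the windows of Pcdhgc3.

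Pcdhac2 (positions 37303623 to 37347311), known for its role in the spacing of serotonergic axons, was above 0 in a single library. That library was VNO-CF1, with 16.9 FPKM, and it was also the library with the lowest Pcdhgc3 value in VNO. The fragment estimate of Pcdhac2 there was 912, again not read as a fragment count. In the other 35 libraries Pcdhac2 was at 0. The 3 annotated read-through genes that span from the alpha into the gamma cluster (Gm37013, Gm38666 and Gm38667) were at 0 in all 36 libraries. Because genes that share exons were at 0 as a block, a value of 0 here is not read as absence of the transcript. No mean, fold or test is given for a group of libraries at 0, except that Pcdhgc3 in OB and Pcdhac2 in VNO enter counts of genes tested below.

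**Figure D1:**
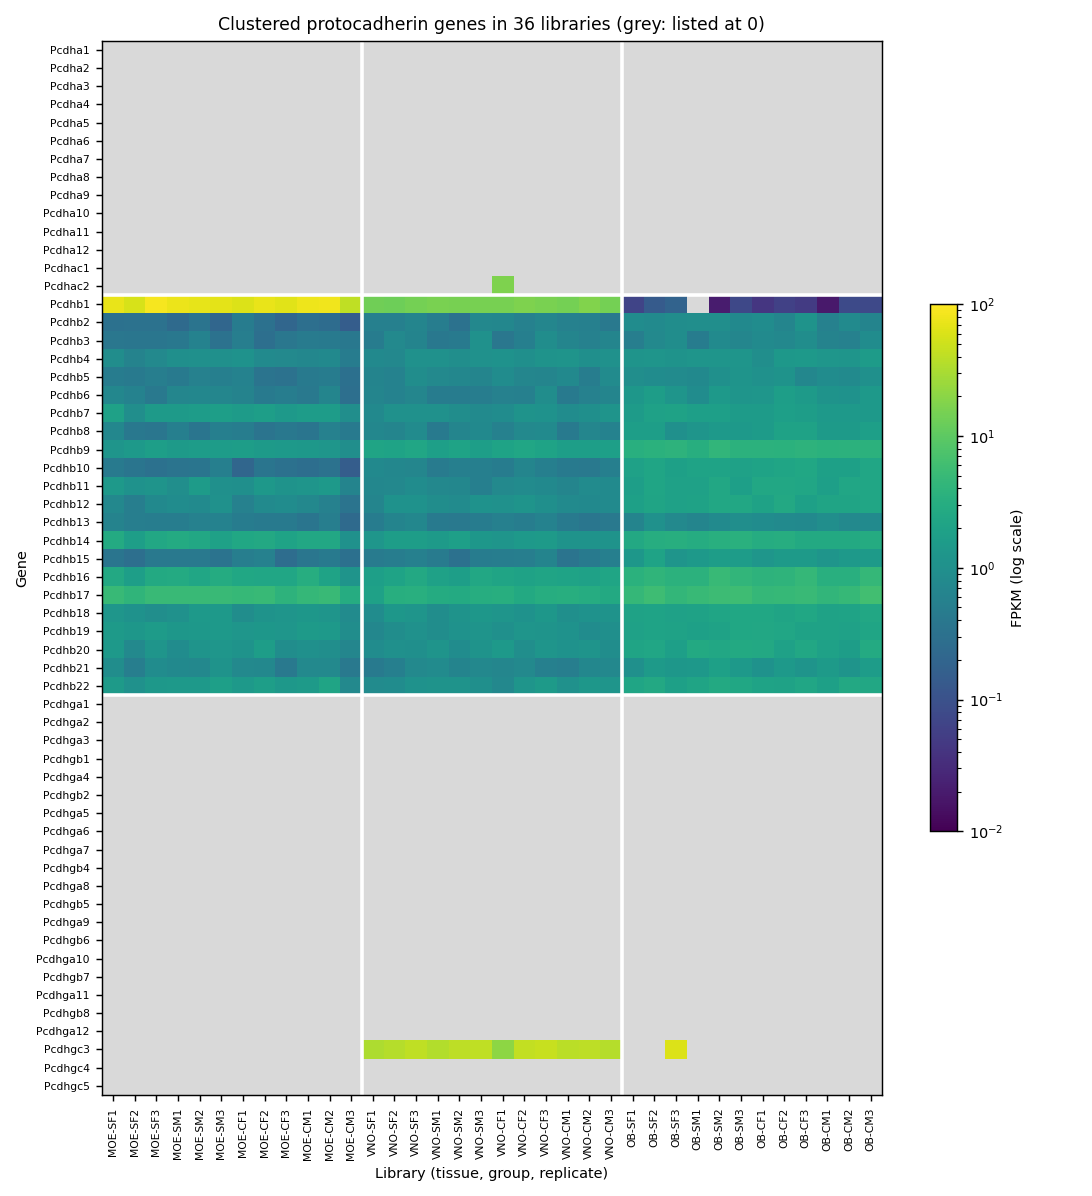
Level of each of the 58 genes (rows, in chromosome order within the alpha, beta and gamma clusters) in each of the 36 libraries (columns, by tissue and group), as FPKM on a log colour scale, with values of exactly 0 in grey. The alpha and gamma blocks are grey except for Pcdhgc3 in 12 VNO libraries and OB-SF3, and Pcdhac2 in VNO-CF1, while all beta rows are filled apart from Pcdhb1 in OB-SM1.

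To describe how much sequence each gene has to itself, 1 transcript per gene was read in windows of 50 bases, the length of 1 read. It was the longest GENCODE transcript linked to the gene's RefSeq entry and need not be the one quantified. For Pcdhb14 it held 8695 bases, whereas the quantified entry spanned mm9 positions 37607311 to 37610748. The share of windows found in no other gene on the same strand was 2.54 to 51.8% for the alpha genes (median 39.4%), 34.1 to 79.9% for the gamma genes (median 55.1%) and 88.0 to 100% for the beta genes (median 95.5%). All alpha genes shared a 3′ end of 2860 to 2866 bases. The gamma genes shared 375 to 2130 bases at the 3′ end, with a median of 2123 bases. The ranges of the beta genes and of the alpha and gamma genes did not overlap. Among the alpha genes Pcdhac2 had the highest share of windows of its own (51.8%), but Pcdhgc3 (55.3%) lay at the middle of the gamma genes. Pcdhgc4 (58.4%) and Pcdhgc5 (55.8%), both at 0 throughout, had at least as much. The part of shared exons in the zeros was not tested, since the tables hold the estimates and not the reads.

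**Figure D2:**
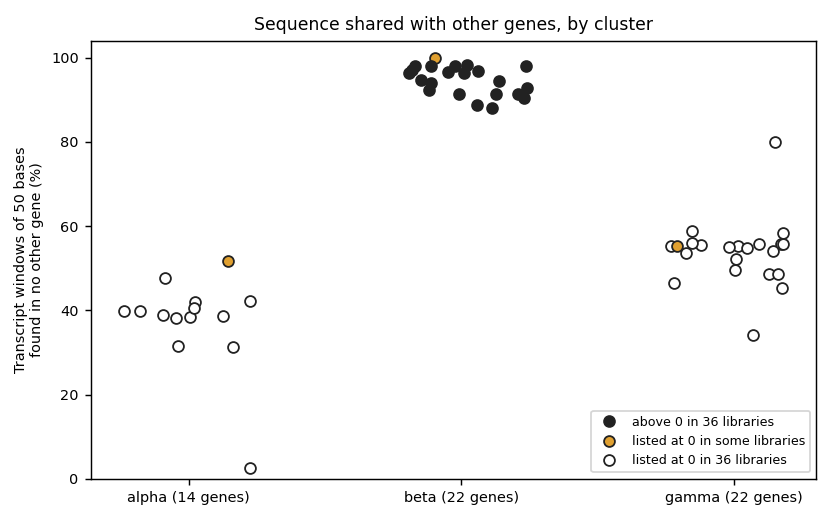
Share of transcript windows of 50 bases that occur in no other gene (vertical axis, percent) for the 14 alpha, 22 beta and 22 gamma genes, with the horizontal spread within a cluster drawn at random. Filled points are above 0 in all 36 libraries, orange points (Pcdhac2, Pcdhb1 and Pcdhgc3) are at 0 in some, and open points are at 0 in all of them. The beta genes lie at 88.0% or more and the alpha and gamma genes at 79.9% or less.

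Among the beta genes, Pcdhb1 (positions 37424652 to 37427108) stood apart in level and in tissue pattern. It is the first gene of the beta cluster and one of the few genes of the 3 clusters whose promoter lacks the conserved sequence element that the others share. In MOE its values were 74.8, 56.9 and 86.9 FPKM in SF, 75.8, 71.7 and 69.5 FPKM in SM, 62.6, 74.8 and 66.5 FPKM in CF, and 79.2, 81.8 and 40.9 FPKM in CM. The lowest of these was in MOE-CM3, the library that was low for most beta genes. In VNO the values were 13.4, 13.0 and 14.8 FPKM in SF, 15.8, 14.9 and 14.9 FPKM in SM, 15.2, 17.0 and 15.7 FPKM in CF, and 14.8, 17.7 and 14.6 FPKM in CM. In OB the gene was near 0, with a lowest value of 0 in OB-SM1, a median of 0.0632 FPKM and a highest value of 0.189 FPKM in OB-SF3. No value of 1 tissue overlapped with a value of another.

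The OB values of Pcdhb1 rested on 0 to 9 estimated fragments per library, 41.0 over the 12 libraries, against 1546 to 3925 fragments per MOE library and 467 to 918 per VNO library. On the scale of log2(FPKM + 0.5) its level in OB was lower than in MOE by 6.94 (SE 0.08, adjusted p = 9.1e-34, limma) and lower than in VNO by 4.78 (SE 0.08, adjusted p = 8.5e-30, limma). The pseudocount of 0.5 understates both differences, since the OB values are below it. Between MOE and VNO the difference was 2.15 (SE 0.08, adjusted p = 2.6e-20, limma), and the mean in MOE was 4.63 times that in VNO. None of the windows of Pcdhb1 occurred in another gene. In these bulk libraries, fewer cells that express a gene and less RNA per cell cannot be told apart.

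Pcdhb1 followed the order of the sensory neuron marker Omp between the tissues, though not in proportion. The ratio of Pcdhb1 to Omp, both in FPKM, was 0.0638 to 0.0792 in MOE, 0.131 to 0.175 in VNO and 0 to 0.00566 in OB. In MOE-CM3, where Pcdhb1 had its lowest MOE level, Omp was also lowest at 638 FPKM. So were Actb (184 FPKM), Cnga2 (131 FPKM) and the sum of the other beta genes (14.5 FPKM), so this low point is not particular to Pcdhb1 and Omp. The part of sensory neuron content in the level of Pcdhb1 was not tested. In MOE the gene made up 74.3 ± 1.77% of the summed FPKM of the 22 beta genes (SD, n = 12). In VNO its share was 41.0 ± 2.53%, and in OB it was 0 to 0.471%.

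The other 21 beta genes were low and far closer together. All were above 0 in all 36 libraries. Their mean levels ran from 0.286 to 4.66 FPKM in MOE, from 0.476 to 2.94 FPKM in VNO and from 0.726 to 5.06 FPKM in OB. Pcdhb17 was the highest of them in each tissue. Its lowest, median and highest values were 3.03, 4.93 and 5.21 FPKM in MOE, 1.97, 3.09 and 3.30 FPKM in VNO, and 4.33, 4.93 and 6.05 FPKM in OB. The MOE and OB ranges of Pcdhb17 overlapped, and the VNO values lay below all OB values.

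Pcdhb16 was the second highest of the 21 in each tissue. Its lowest, median and highest values were 1.19, 2.38 and 3.07 FPKM in MOE, 1.72, 2.09 and 2.57 FPKM in VNO, and 3.30, 3.92 and 4.87 FPKM in OB. In OB and VNO Pcdhb9 came next, with means of 3.70 ± 0.27 FPKM and 2.01 ± 0.23 FPKM (SD, n = 12 each). In MOE this place was held by Pcdhb14 at 2.29 ± 0.50 FPKM, where Pcdhb9 was at 1.45 ± 0.23 FPKM. The lowest of the 21 genes was Pcdhb2 in MOE (0.286 ± 0.083 FPKM), Pcdhb15 in VNO (0.476 ± 0.085 FPKM) and Pcdhb3 in OB (0.726 ± 0.157 FPKM). Neighbours in the order of mean levels differed by less than the larger of both SDs in 18 of 20 pairs in MOE, 16 of 20 in VNO and 15 of 20 in OB.

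Single values rested on few fragments: a median of 41.9 per gene and library in MOE, 50.3 in VNO and 102 in OB, with a lowest value of 6.00. The coefficient of variation over the 12 libraries ran from 12.5 to 29.6% in MOE, 11.4 to 32.4% in VNO and 7.38 to 21.6% in OB. Across the 21 genes the mean log2 levels in MOE and VNO were correlated with a Pearson r of 0.91, those in VNO and OB with 0.84, and those in MOE and OB with 0.82. These are across genes, which are not independent replicates, and gene length and sequence composition are common to both sides. Pcdhb12 is a special case, because 62.9% of its windows are also covered by an antisense gene (Gm37446). The library kit marks strand, but the strand setting used for quantification is not given in the sources used here.

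**Figure D3:**
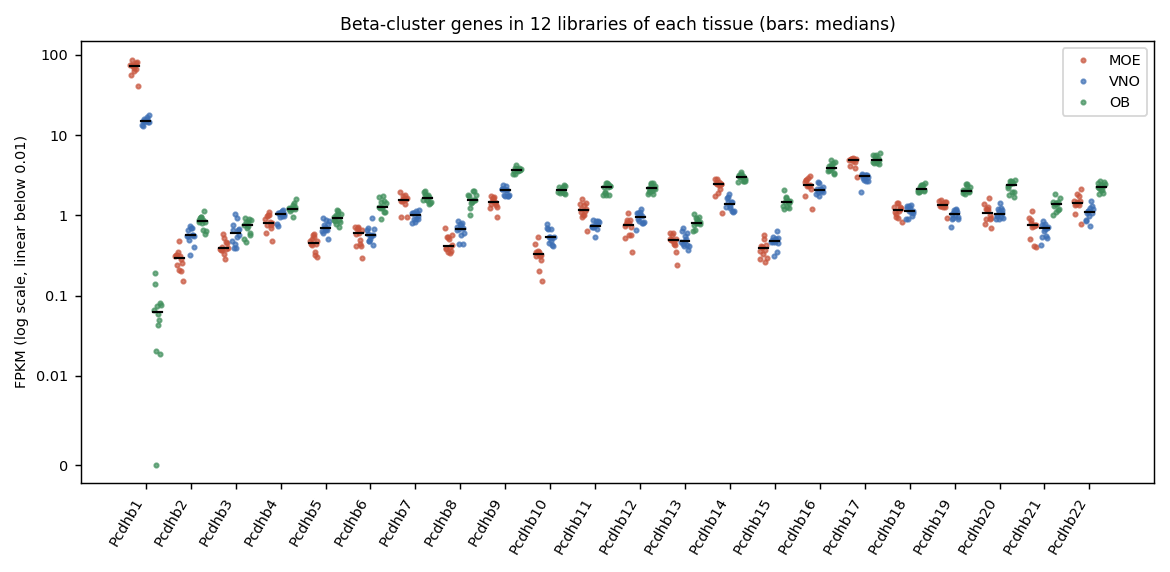
FPKM (log axis, linear below 0.01) of the 22 beta genes in 12 libraries each of MOE, VNO and OB. Points are libraries and bars are medians. Pcdhb1 has medians of 73.2 FPKM in MOE, 14.9 FPKM in VNO and 0.0632 FPKM in OB, and the other 21 genes lie between 0.151 and 6.05 FPKM.

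The tissues were compared gene by gene with limma, in 1 fit over 36 libraries on log2(FPKM + 0.5), for the 14627 genes with a mean of at least 0.5 FPKM. The fit treated the libraries as independent, although the tissues came from the same mice. Which pools of different tissues share mice is not stated. All 22 beta genes and Pcdhgc3 passed this filter, and the other 35 of the 58 genes did not. Pcdhb1 and Pcdhgc3, which were at 0 in some libraries, are kept apart from the counts. Of the other 21 beta genes, 19 were higher in OB than in MOE and 0 were lower at an adjusted p under 0.05. Over all genes tested, 39.3% were higher and 45.7% lower in OB. The median difference of the 21 genes was 0.66, against -0.07 for all genes.

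The largest of these differences between OB and MOE was that of Pcdhb10, whose lowest, median and highest values were 0.151, 0.330 and 0.532 FPKM in MOE and 1.86, 2.08 and 2.41 FPKM in OB. Every OB value lay far above every MOE value, and the log2 difference was 1.65 (SE 0.05, adjusted p = 1.2e-22). For Pcdhb15 the MOE values were 0.265, 0.387 and 0.566 FPKM and the OB values 1.2, 1.49 and 2.06 FPKM, again without overlap, a log2 difference of 1.16 (SE 0.07, adjusted p = 1.8e-16). Pcdhb12 had MOE values of 0.347, 0.758 and 1.07 FPKM and OB values of 1.85, 2.17 and 2.55 FPKM. These did not overlap either, and the log2 difference was 1.14 (SE 0.07, adjusted p = 8.2e-16). Pcdhb7 and Pcdhb17 did not pass the threshold, with log2 differences of 0.11 (95% confidence interval -0.03 to 0.26, adjusted p = 0.14) and 0.11 (-0.04 to 0.26, adjusted p = 0.16).

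Between OB and VNO the picture was similar, although the OB libraries enter both comparisons. Of the 21 genes, 20 were higher in OB and 0 lower, against 48% and 37.8% of all genes tested. Their median difference was 0.75, that of all genes 0.12. Pcdhb10 was again first, with VNO values from 0.413 to 0.785 FPKM that lay below all its OB values and a log2 difference of 1.29 (SE 0.05, adjusted p = 6.8e-20). Pcdhb11 followed, at 0.538 to 0.881 FPKM in VNO and 1.78 to 2.53 FPKM in OB, a log2 difference of 1.08 (SE 0.08, adjusted p = 3.7e-14). For Pcdhb15 the VNO values were 0.310 to 0.634 FPKM, and the log2 difference was 1.02 (SE 0.07, adjusted p = 4.1e-15). Pcdhb3 did not pass the threshold (0.13, 95% confidence interval -0.05 to 0.31, adjusted p = 0.17).

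The OB and VNO counts depend on the scaling. With the libraries scaled to their upper quartile, the median difference of all genes moved from 0.12 to -0.13. The split of all genes called went from 7025 higher and 5527 lower to 5461 higher and 7307 lower, while 17 of the 21 beta genes stayed higher and 0 were lower. Pcdhb2, Pcdhb4 and Pcdhb5 then lost their calls, with Pcdhb4 turning to -0.02. Between OB and MOE the same scaling left 19 genes higher. Without the libraries MOE-CM3, VNO-CF1 and OB-SF3, a choice made after seeing the data, 19 and 20 genes were higher.

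The ranges of the 12 OB and 12 MOE libraries did not overlap, with OB higher, for 14 of the 21 beta genes, against 26.4% of all genes tested, and with OB lower for 0, against 24.7%. For OB and VNO they were apart with OB higher for 15 of 21, against 34.4% of all genes, and with OB lower for 0, against 28.2%. Pcdhb4, with 0.476 to 1.11 FPKM in MOE, 0.735 to 1.18 FPKM in VNO and 0.953 to 1.58 FPKM in OB, was among the genes that overlapped in both.

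Between MOE and VNO the 21 genes went both ways. At an adjusted p under 0.05, 6 were higher in MOE and 9 lower, against 48.6% higher and 34% lower among all genes tested (82.6% in either direction). The largest differences were those of Pcdhb17 (0.58, SE 0.08, adjusted p = 4.3e-08), Pcdhb14 (0.53, SE 0.08, adjusted p = 1.3e-06) and, in the other direction, Pcdhb2 (-0.44, SE 0.07, adjusted p = 9.4e-07). Pcdhb14 had 1.06, 2.46 and 2.83 FPKM as its lowest, median and highest values in MOE and 1.12, 1.39 and 1.82 FPKM in VNO, so even here the ranges overlapped. None of the 21 genes had ranges that were apart between MOE and VNO, against 15.8% of all genes apart and higher and 19% apart and lower. The balance depends on the scaling, at 4 higher and 13 lower after upper quartile scaling and 9 higher and 7 lower after quantile normalization. The median of all genes was 0.15 as deposited, -0.08 after the former and 0.01 after the latter.

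**Figure D4:**
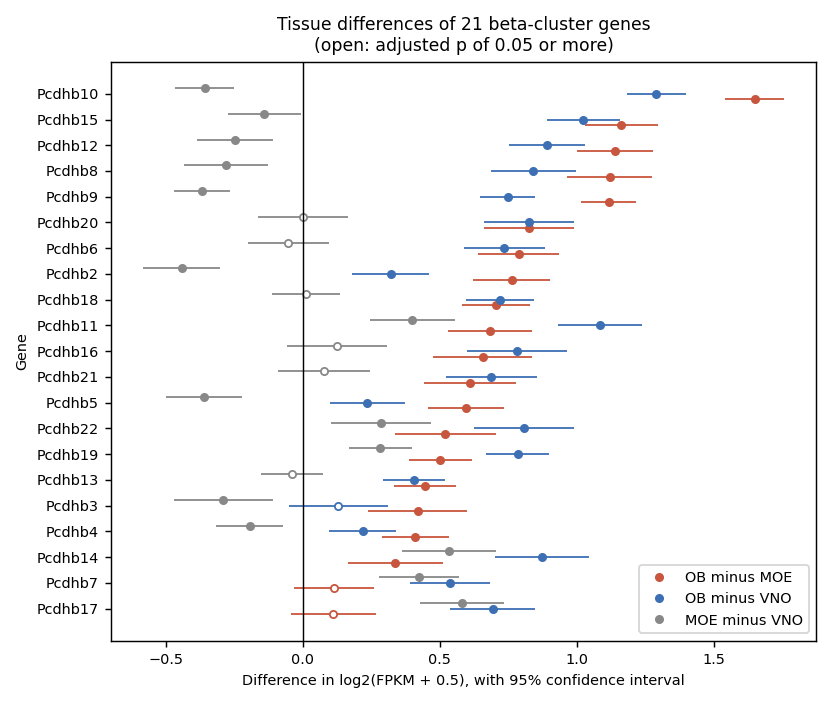
Differences in log2(FPKM + 0.5) between tissues (horizontal axis, with 95% confidence intervals) for the 21 beta genes other than Pcdhb1, ordered by the difference between OB and MOE. Open points did not pass the adjusted p of 0.05. The red and blue points lie right of 0 for all 21 genes, from 0.11 to 1.65 for OB minus MOE and from 0.13 to 1.29 for OB minus VNO, and the grey MOE minus VNO points lie on both sides, from -0.44 to 0.58.

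Summed over a cluster, the tissues came in another order than the single genes because Pcdhb1 dominated the sum. The 22 beta genes summed to 94.3 ± 15.5 FPKM in MOE, 37.0 ± 2.33 FPKM in VNO and 43.1 ± 3.22 FPKM in OB (SD, n = 12 each). After upper quartile scaling the order of VNO (43.0 FPKM) and OB (39.2 FPKM) turned. Without Pcdhb1 the sums were 24.2 ± 3.66 FPKM in MOE, 21.9 ± 1.73 FPKM in VNO and 43.1 ± 3.22 FPKM in OB. The lowest OB sum without Pcdhb1 (38.8 FPKM) lay above the highest sum of MOE (27.4 FPKM) and of VNO (24.8 FPKM). The lowest MOE sum, 14.5 FPKM, was that of MOE-CM3. Pcdhb17, the highest of the 21 genes, made up 19.3% of the sum without Pcdhb1 in MOE, 13.5% in VNO and 11.7% in OB. In VNO the gamma sum was the value of Pcdhgc3 alone, and the alpha sum was 0 in all libraries except VNO-CF1.

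Sex and housing were then compared within each tissue: SF with SM, CF with CM, SF with CF, SM with CM, and the interaction of sex and housing. The filter left 15 beta genes in MOE and 21 each in VNO and OB. Pcdhb1 did not pass in OB. Pcdhgc3 passed in VNO and, through OB-SF3 alone, in OB, and Pcdhac2 passed in VNO through VNO-CF1 alone. In none of the 15 comparisons did limma call a clustered protocadherin gene at an adjusted p under 0.05. Over the 5 comparisons together, 0.0596% of tests of all genes were called in MOE, 0.0231% in VNO and 0.0203% in OB. At an unadjusted p under 0.05 there were 3 of 75 tests of beta genes in MOE, 5 of 105 in VNO and 1 of 105 in OB. Of all genes tested, 3.9% of tests in MOE, 6.26% in VNO and 4.12% in OB fell under 0.05.

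Summed levels of the 21 beta genes other than Pcdhb1 overlapped between the groups of a tissue, except those of CF and CM in VNO. In OB they were 41.7 ± 3.70 FPKM in SF, 44.6 ± 3.58 FPKM in SM, 44.0 ± 1.24 FPKM in CF and 42.0 ± 4.44 FPKM in CM (SD, n = 3 each). In VNO they were 21.9 ± 3.08 FPKM in SF, 21.5 ± 1.18 FPKM in SM, 23.1 ± 1.21 FPKM in CF and 20.9 ± 0.43 FPKM in CM, and the lowest CF sum (22.2 FPKM) lay above the highest CM sum (21.4 FPKM). No test was made of the sums, and how often sums of other genes lie apart in this way was not counted. In MOE they were 24.3 ± 3.57 FPKM in SF, 26.5 ± 0.93 FPKM in SM, 24.2 ± 2.05 FPKM in CF and 21.6 ± 6.17 FPKM in CM, the last with MOE-CM3 in it.

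The smallest unadjusted p in VNO was that of Pcdhb9 between CF and CM. Its values were 2.084, 2.315 and 2.096 FPKM in CF and 1.76, 1.73 and 1.81 FPKM in CM. The groups did not overlap, though the share of all genes without overlap here was not counted. The log2 difference was 0.23 (SE 0.08, adjusted p = 1, limma). Next came Pcdhb14 between SM and CM with 0.32 (SE 0.12, adjusted p = 1, limma). In the background of the same comparisons, 3.94% and 2.33% of all genes had an unadjusted p under 0.05. Pcdhb1 in VNO had a log2 difference of -0.21 between SF and CF (95% confidence interval -0.40 to -0.02, adjusted p = 0.43, limma), a comparison in which 11% of all genes were under 0.05.

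In MOE the smallest p was that of Pcdhb12 between SM and CM, with values of 0.869, 0.818 and 1.07 FPKM in SM and 0.724, 0.567 and 0.347 FPKM in CM. The groups did not overlap, and the lowest value was that of MOE-CM3. Here too the share of all genes without overlap was not counted. The log2 difference was 0.45 (SE 0.19, adjusted p = 0.70, limma). Pcdhb4 followed in the same comparison with 0.38 (SE 0.17, adjusted p = 0.70, limma). All 15 differences of beta genes were above 0 there, with a median of 0.27 against 0.17 for all genes, and 6.94% of all genes had an unadjusted p under 0.05. Without MOE-CM3 the medians were 0.05 for the beta genes and -0.02 for all genes.

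In OB the smallest p was that of Pcdhb14 between SM and CM (0.21, SE 0.09, adjusted p = 1, limma), followed by Pcdhb7 in the same comparison (0.20, SE 0.10, adjusted p = 1, limma), against 3.4% of all genes with an unadjusted p under 0.05. Pcdhb1 was at most 0.189 FPKM in OB and is not compared there. The median 95% confidence interval of a beta gene reached 0.42 on the log2 scale to either side in MOE and 0.27 each in VNO and OB between groups, and 0.60, 0.39 and 0.39 in the interaction, without adjustment for the number of tests. Pcdhgc3 in VNO had log2 differences from -0.12 to 0.06 in the 5 comparisons, with intervals that reached at least 0.38 to both sides. With library weights in the fit, which ran from 0.307 to 6.20 in OB, calls appeared in OB and in neither other tissue, with 6 of 22 genes between SF and SM, 7 between SM and CM and 2 in the interaction. Of all genes in the same weighted fit, 11% were called between SF and SM, 24.6% between SM and CM and 3.23% in the interaction. Pcdhgc3, with its value in OB-SF3 alone, is 1 of the genes in the first and the last of these counts. Its calls rest on 1 library and are not read as a result.

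**Figure D5:**
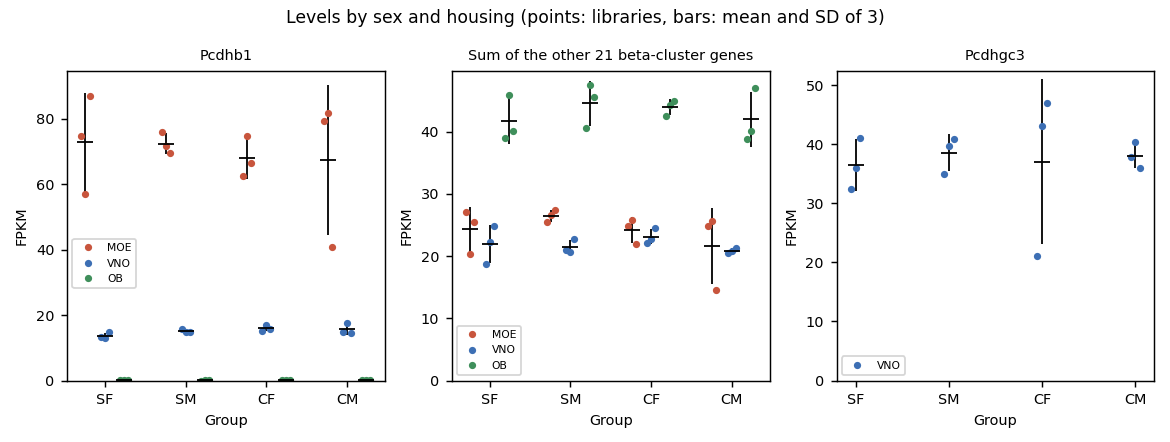
FPKM of Pcdhb1, the sum of the other 21 beta genes, and Pcdhgc3 in VNO (vertical axes), by group of sex and housing (horizontal axes). Points are libraries, coloured by tissue, and bars are the mean and SD of 3. The low points are MOE-CM3 (40.9 FPKM for Pcdhb1 and 14.5 FPKM for the sum) and VNO-CF1 (21.04 FPKM for Pcdhgc3), and for the sum in VNO all CF points lie above the CM points.

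Other genes of the pathway were taken from 4 lists. The first held 21 regulators of chromatin and promoter choice, of which 20 were tested. Between OB and MOE 8 were higher and 9 lower, and between OB and VNO 11 were higher and 9 lower, against 85.1% and 85.8% of all genes called in either direction. Ctcf, whose protein binds most promoters of the clusters, had mean levels of 11.2 ± 1.58 FPKM in MOE, 7.81 ± 0.43 FPKM in VNO and 10.8 ± 1.10 FPKM in OB (SD, n = 12 each). Stag2, a cohesin subunit, was lower in OB than in MOE by 1.15 (SE 0.09), and Rest, a repressor of neuronal genes, was lower in OB than in MOE by 1.07 (SE 0.05) and than in VNO by 1.53 (SE 0.05). The DNA methyltransferase gene Dnmt1 was higher in OB than in VNO by 1.02 (SE 0.07), at 8.55 ± 0.67 FPKM against 3.95 ± 0.28 FPKM.

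The second list held 18 cytoplasmic partners and processing enzymes, 17 of them tested. Between OB and MOE 11 were higher and 2 lower, with a median difference of 1.19, and between OB and VNO 13 were higher and 4 lower, with a median of 0.70. Among all genes tested, 39.3% were higher and 45.7% lower between OB and MOE, and 48% and 37.8% between OB and VNO. Ptk2b, which encodes the kinase PYK2 that the shared cytoplasmic domains bind and inhibit, had 26.6 ± 2.11 FPKM in OB, 0.802 ± 0.151 FPKM in MOE and 1.90 ± 0.23 FPKM in VNO. Its log2 difference was 4.38 (SE 0.05) between OB and MOE and 3.50 (SE 0.05) between OB and VNO. Prkca, a protein kinase C gene that acts below PYK2, was higher in OB than in MOE by 3.56 (SE 0.06) and than in VNO by 3.08 (SE 0.06).

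Of 21 protocadherins and related large cadherins outside the clusters, 20 were tested. Between OB and MOE 14 were higher and 6 lower, and between OB and VNO 12 were higher and 8 lower, in both directions each time. The shares among all genes tested were 39.3% higher and 45.7% lower, and 48% higher and 37.8% lower. Pcdh20 was at 14.4 ± 1.59 FPKM in OB and below 0.5 FPKM in all MOE and VNO libraries, with log2 differences of 4.14 (SE 0.06) and 4.59 (SE 0.06). Pcdh10 was higher in OB than in MOE by 2.78 (SE 0.13) and than in VNO by 4.03 (SE 0.13). Of 18 classical and related cadherins 14 were tested, with 10 higher and 3 lower between OB and MOE and 10 higher and 4 lower between OB and VNO. Cdh10 was higher in OB (8.72 ± 0.84 FPKM) than in MOE by 4.11 (SE 0.05) and than in VNO by 4.03 (SE 0.05). Cdh1, the epithelial cadherin, was lower in OB (0.352 ± 0.101 FPKM) than in MOE (12.8 ± 1.45 FPKM) and VNO (11.3 ± 1.45 FPKM), with log2 differences of -3.96 and -3.79 (SE 0.07 each). All differences of these lists that are given passed an adjusted p of 0.05 in the same limma fit.

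Cell type markers moved with the tissues as well. For the counts below, 39.3% of all genes tested were higher and 45.7% lower in OB than in MOE. Against VNO, 48% were higher and 37.8% lower in OB. Of 12 pan-neuronal markers, 10 were higher and 2 lower in OB than in MOE, and 12 were higher in OB than in VNO. Their summed level was 619 to 812 FPKM in OB, 106 to 178 FPKM in MOE and 57.4 to 80.1 FPKM in VNO, with Syn1 at a median of 0 in MOE. Of 8 oligodendrocyte markers, 8 were higher in OB than in MOE and 7 than in VNO, with summed levels of 271 to 370 FPKM in OB, 17.8 to 34.3 FPKM in MOE and 26.2 to 34.7 FPKM in VNO, and with Mobp at a median of 0 in MOE and VNO. Astrocyte markers summed to 253 to 318 FPKM in OB, 81.9 to 146 FPKM in MOE and 69.8 to 84.6 FPKM in VNO. Of these 8 genes 6 were higher and 2 lower in OB than in MOE, and the same numbers held against VNO. Aqp4 was at 31.0 FPKM in OB, 68.0 FPKM in MOE and 50.0 FPKM in VNO, and Sox9 was also lowest in OB. Of 8 olfactory sensory neuron markers, 8 were lower in OB than in MOE and 7 than in VNO, the direction of Pcdhb1. Gnal was higher in OB (4.08 FPKM) than in VNO (1.65 FPKM). Sustentacular and gland markers summed to 4.12 to 59.98 FPKM in OB, 3920 to 9851 FPKM in MOE and 12275 to 21173 FPKM in VNO, where Obp2a alone had a mean of 17167 FPKM. Of these 8 genes 6 were higher and 1 lower in MOE than in VNO, against 48.6% and 34% of all genes tested. Endothelial markers summed to 31.8 to 46.2 FPKM in OB, 13.8 to 23.1 FPKM in MOE and 17.1 to 24.5 FPKM in VNO. Cldn5 carried this order between OB and VNO (31.0 against 8.76 FPKM), while of the 6 genes 1 was higher and 4 were lower in OB than in VNO. Choroid plexus markers summed to 1.496 to 23.3 FPKM in OB, 28.3 to 51.5 FPKM in MOE and 15.4 to 19.8 FPKM in VNO. Clic6 made up most of the MOE and VNO sums, with means of 33.1 and 15.7 FPKM against 0.238 FPKM in OB. Ttr went the other way, at 0.151 FPKM or more in OB and at most 0.124 FPKM in MOE and 0.0554 FPKM in VNO. Of the 4 genes tested 1 was higher and 3 were lower in OB than in MOE, and the same numbers held against VNO. The part of cell composition in the differences of the beta genes was not tested.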

How the data were processed

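RNA was ribosome-depleted, made into stranded libraries and sequenced as pairs of 50 bases in 2 lanes. Per the labels and the study's methods, the authors aligned reads with TopHat2 2.1.0 and computed FPKM with Cufflinks 2.2.1.0 on build mm9. The deposited FPKM values, 1 table per library, were used without rescaling. Entries were named by RefSeq accession (99.7% of them) and summed by gene. Each of the 58 genes had 1 entry, with an OK status in all libraries, and 1 of them (Pcdhgb8) was named through GENCODE. For 7 genes with another status no value was used. The fragments behind a value were estimated by dividing FPKM by its standard error and squaring the result.

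Comparisons used limma 3.58.1 under R 4.3.3, with a trended prior, on log2(FPKM + 0.5) for genes with a mean of at least 0.5 FPKM, in 1 fit over 36 libraries between tissues and 1 fit per tissue of 12 libraries for sex and housing. The scale understates changes of low genes. The Benjamini-Hochberg adjustment took in every gene tested in that comparison. The fit was also run on simulated data with independent noise. These data held no mice shared between tissues and no low library such as MOE-CM3, so they cannot show how the fit behaves there. Shared windows were counted in GENCODE transcripts of GRCm38, whose coordinates are not used here. Summaries and plots were made with Python 3.11.15, pandas 2.3.3 and matplotlib 3.10.9. No test of sums is reported. Genes in groups of libraries at 0 enter only the counts of genes tested or called.

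The members and the lists were chosen with earlier results of these data known. Genes named were the C-type genes, the 3 highest genes per cluster and tissue, the 3 largest differences past the threshold per tissue comparison among genes above 0 in every library, the 2 genes with the smallest p per tissue for sex and housing, and the 2 largest differences per pathway list in each comparison of OB. Lowest genes, genes that did not pass and special cases were named beside them after their values had been seen. Alternatives changed the pseudocount, the filter, the scaling, the weights, the entries, the libraries and the block. The replicate numbers were taken from the labels. Deviations of same-numbered libraries from their group means correlated over 0.1 in every pair between SF and SM (0.127 to 0.202) and between SF and CF (0.101 to 0.273) of VNO. In no other comparison were all pairs over 0.1. Libraries with different numbers were not correlated in this way, so these values cannot decide whether the numbers mark shared mice or handling. The labels call the libraries biological replicates of pooled RNA.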

Additional observations from a re-analysis of the deposited data

How the results depend on the processing

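The counts of beta genes other than Pcdhb1 that were higher in OB stayed at 19 to 20 of 21 against MOE and at 17 to 21 against VNO under all alternatives run, and 0 were lower under each. Between OB and VNO, upper quartile scaling turned Pcdhb4 to -0.023 and ended the calls of Pcdhb2 and Pcdhb5. It also moved the summed FPKM of the beta genes to 43.0 in VNO and 39.2 in OB, which turned their order, that of the beta genes without Pcdhb1 to 25.4 in VNO and 39.2 in OB, and that of the C-type genes in VNO to 45.2. Library weights gave calls in OB, with 6 genes between SF and SM, 7 between SM and CM and 2 in the interaction, where 11%, 24.6% and 3.23% of all genes were called. The first and last of these counts include Pcdhgc3, whose only OB value is that of OB-SF3. The cause was not tested. Between MOE and VNO, Pcdhb15 (adjusted p = 0.049) lost its call in 25 of 36 fits that left out 1 library. Counts of genes at 0 did not change when values under 0.05 FPKM were counted too.

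Same-numbered libraries deviated together in 2 comparisons of VNO (SF with SM and SF with CF), and elsewhere not in every pair, with a median r of 0.01 between tissues and 5 of 36 pairs over 0.1. With the replicate number as a block, 19 and 20 beta genes were higher in OB than in MOE and VNO, and 6 were higher and 8 lower in MOE than in VNO. With this block 0 protocadherin genes were called by sex or housing, in these 2 comparisons of VNO as in the others.

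Low fragment numbers limit the beta genes, and 3 libraries per group limit the comparisons of sex and housing. For the alpha and gamma genes the tables allow no statement on level, since a value of 0 is not read as absence.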

Other observations

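Another cluster of genes with separate first exons and shared 3′ exons, the Ugt1a genes of glucuronidation, was looked up after the values of the protocadherins had been seen. Ugt1a2, Ugt1a9 and Ugt1a10 were at 0 FPKM in all 36 libraries, whereas Ugt1a6a had medians of 3.47 FPKM in MOE and 3.59 FPKM in VNO, with a value in all 12 libraries of each. Ugt1a7c had medians of 4.53 FPKM in MOE and 1.31 FPKM in VNO, also with a value in all 12 libraries of each. In OB Ugt1a6a was at 0 in 3 libraries and at most at 0.144 FPKM. Ugt1a6a, Ugt1a6b and Ugt1a7c had values in all 12 libraries of MOE and of VNO. Ugt1a1 and Ugt1a5 were at 0 in all of these libraries, and in OB they were at 0 in 11 and 8 of 12. The shared sequence of the Ugt1a genes was not measured, and the cause of the zeros was not tested in either family.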
